A study of Mus musculus with 8 samples.

Results

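The integrin chains of mouse natural killer (NK) cells were followed by 10 genes, named by symbol and found as rows of every count file: the alpha chains *Itgal*, *Itgam*, *Itgax*, *Itga2*, *Itga4*, *Itgae* and *Itgav* and the beta chains *Itgb1*, *Itgb2* and *Itgb3*. These are 10 of 48321 gene symbols listed, and all 10 were among the 12595 genes with enough reads to be tested. RNA-seq libraries came from NK cells of the C57/Bl6 strain, sorted as CD45+ TCRb- NK1.1+ cells from lung or spleen of WT mice or of KO mice. KO stands for mice homozygous for a CRISPR/Cas9 deletion of the proximal enhancer of *Ccl5* (Ccl5-PE), a change present in every cell of the animal. Each of the 4 groups (WT and KO, in lung and in spleen) has 2 libraries. The mouse lines of the study were young adults of both sexes, bred and housed apart from each other, and the age and sex behind each library are not given. The labels do not say whether 2 libraries of a group came from 2 mice, so n counts libraries and every p-value measures only the spread between these libraries, which may be technical.

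Integrins are heterodimers of 1 alpha and 1 beta chain that tie a cell to neighbouring cells and to the extracellular matrix. The beta 2 chain (Itgb2, CD18) pairs with Itgal (CD11a) to form LFA-1, with Itgam (CD11b) to form Mac-1 and with Itgax (CD11c), and LFA-1 holds the NK cell to its target through ICAM proteins. The beta 1 chain (Itgb1, CD29) pairs with Itga4 (CD49d) to form VLA-4, a receptor for VCAM-1 and fibronectin, and with Itga2 (CD49b), the collagen receptor used to mark mouse NK cells with the DX5 antibody. Itgae (CD103) pairs with the beta 7 chain and binds E-cadherin, and Itgav (CD51) with Itgb3 (CD61) forms a vitronectin receptor.

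Between 3132963 and 26482366 reads were counted per library, so that 3 reads equalled 0.115 to 0.979 counts per 1000000 reads (CPM). Levels are CPM on library sizes scaled by TMM. NK cell genes were abundant in every library (the summed level of 8 NK cell markers was 27320 to 38530 CPM). *Ccl5*, the gene next to the deleted enhancer, was counted at 19520 and 18350 CPM in the WT and 2992 and 3195 CPM in the KO lung libraries, and at 16680 and 15660 CPM in the WT and 2676 and 2432 CPM in the KO spleen libraries. All 4 KO libraries were below every WT library. Surfactant gene *Sftpc* was counted at 152 to 282 CPM in the 4 lung libraries and at 0 in the 4 spleen libraries.

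The position of each gene is given on GRCm38 from the GENCODE M21 annotation. *Itgal* (chr7:127296260-127335138), *Itgam* (chr7:128062640-128118491) and *Itgax* (chr7:128129547-128150657) lie on the plus strand of 1 chromosome. Their partner *Itgb2* is at chr10:77530252-77565708 on the plus strand. *Itgb1* (chr8:128685654-128733200) and *Itga4* (chr2:79255426-79333123) are on the plus strand, and *Itga2* (chr13:114833081-114932100) is on the minus strand. *Itgae* (chr11:73090583-73147446), *Itgb3* (chr11:104608000-104670476) and *Itgav* (chr2:83724397-83806916) are on the plus strand. Exons of 3 members overlap another annotated gene. *Itga4* shares 1124 bp with *Cerkl* on the opposite strand, *Itgav* shares 634 bp with the antisense transcript *Gm13684*, and *Itgam* shares 3450 bp with *Gm49368*, a same-strand gene that is not a row of the count files. The library kit named in the study does not mark strand, so reads from *Itga4* and *Cerkl* over the shared stretch cannot be told apart.

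The promoters of *Itgb1* and *Itga4* are shown because the chains they encode form VLA-4 and their transcripts differed in opposite directions between KO and WT. RefSeq (GRCm38.p6) gave a promoter for 6 of the 10 members. Each sequence runs from 250 bases before to 50 bases after the annotated start, on the plus strand, at chr8:128685404-128685703 for *Itgb1* and chr2:79255176-79255475 for *Itga4*. Capitals mark matches on either strand to 4 motifs chosen after the values were seen: TGTGGT (RUNX), AGGAAG (ETS), the T-box motif AGGTGTGA and GGGCGG (KLF or SP).
Itgb1: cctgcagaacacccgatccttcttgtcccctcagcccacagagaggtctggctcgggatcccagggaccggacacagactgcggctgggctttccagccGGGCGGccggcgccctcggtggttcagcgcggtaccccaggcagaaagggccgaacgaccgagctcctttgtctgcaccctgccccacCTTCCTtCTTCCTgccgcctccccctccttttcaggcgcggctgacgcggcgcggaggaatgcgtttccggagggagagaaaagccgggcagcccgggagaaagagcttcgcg
Itga4: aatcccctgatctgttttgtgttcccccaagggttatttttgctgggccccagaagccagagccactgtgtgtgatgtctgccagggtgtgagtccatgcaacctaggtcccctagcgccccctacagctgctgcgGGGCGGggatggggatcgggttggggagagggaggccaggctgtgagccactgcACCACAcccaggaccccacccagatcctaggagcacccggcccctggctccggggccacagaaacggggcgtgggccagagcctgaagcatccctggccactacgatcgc
In the *Itgb1* promoter, AGGAAG is present on the reverse strand at 63 and 56 bases before the start, and GGGCGG on the forward strand at 151. In the *Itga4* promoter, TGTGGT is present on the reverse strand at 60 bases before the start and GGGCGG on the forward strand at 114. TGTGGT is held by 16.8% of 32851 promoters of this length, AGGAAG by 35.4%, AGGTGTGA by 1.27% and GGGCGG by 35.7%. These are matches of letters and say nothing about binding.

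Per kb of the longest annotated transcript, the beta chains *Itgb2* and *Itgb1* were the most abundant members. The group mean of *Itgb2* was 549 to 934 CPM per kb and that of *Itgb1* was 237 to 303. *Itgal* followed at 87.3 to 131, *Itgam* at 64.4 to 92.0, *Itga4* at 54.5 to 70.6 and *Itgax* at 31.1 to 36.9 CPM per kb. This order of 6 genes was the same in the 4 groups. *Itgam* and *Itga4* did not separate in spleen KO, where the libraries spanned 62.6 to 66.3 CPM per kb for *Itgam* and 61.8 to 62.9 for *Itga4*. The other members were far lower, at 6.196 to 8.99 CPM per kb for *Itga2*, 4.75 to 8.22 for *Itgav*, 0.806 to 1.66 for *Itgae* and 0.431 to 1.66 for *Itgb3*. In lung WT, *Itgav* and *Itga2* overlapped.

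**Figure D1:**
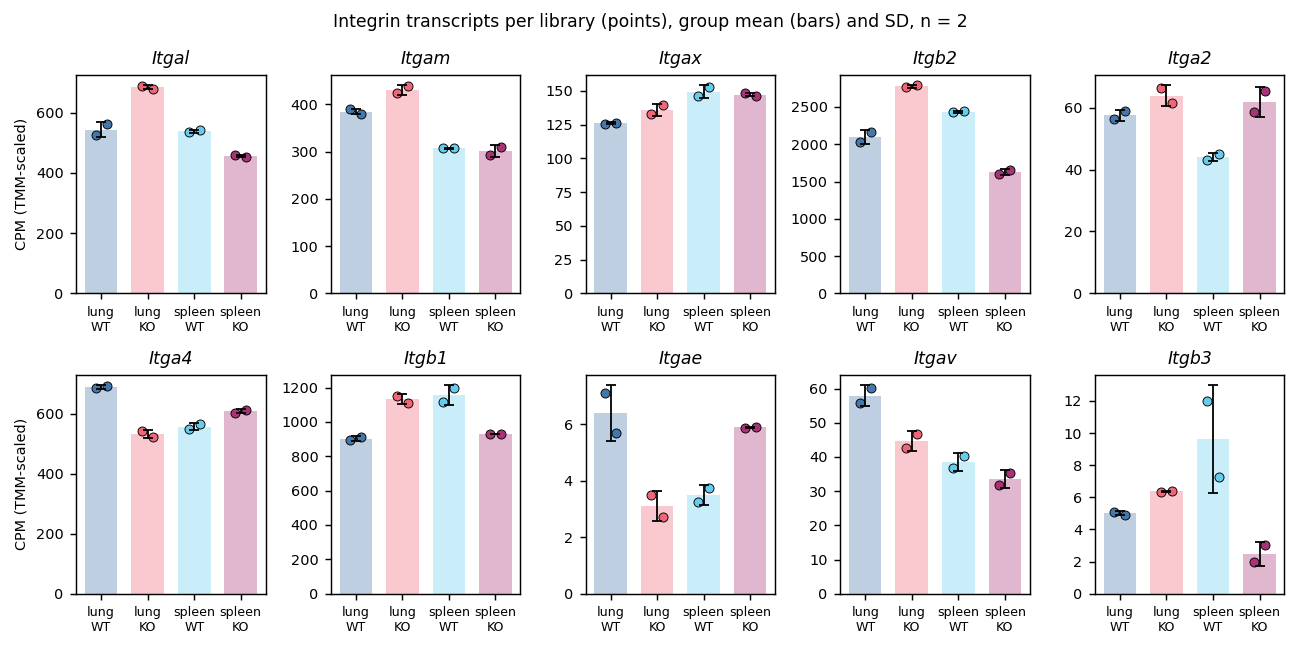
Level of each integrin gene (vertical axis, CPM on TMM-scaled library sizes, starting at 0) in the 4 groups (horizontal axis). Points are libraries, bars are group means and error bars are SD (n = 2 libraries). *Itgb2* was highest in lung KO (2761 and 2789 CPM) and lowest in spleen KO (1600 and 1661 CPM), while *Itga4* was highest in lung WT.

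Among the 10 integrin genes, 4 rose in lung KO over lung WT (*Itgal*, *Itgam*, *Itgb2* and *Itgb1*), 3 fell (*Itga4*, *Itgae* and *Itgav*) and 3 did not pass edgeR's quasi-likelihood test at 0.05 as the false discovery rate (FDR). Of all genes tested, 55.6% passed in lung, 29.2% higher and 26.4% lower, so a count of 7 of 10 is read against a change that covered most genes. The groups did not overlap for all 10 members in lung, against 76.0% of all genes. The median log2 fold change of the members was 0.16 in lung, against 0.02 for all genes, and their median absolute change was 0.34 against 0.36. In spleen, 3 members rose in KO (*Itga2*, *Itga4* and *Itgae*), 4 fell (*Itgal*, *Itgb2*, *Itgb1* and *Itgb3*) and 3 did not pass, where 57.1% of all genes passed, 28.2% higher and 28.9% lower. Groups overlapped in spleen only for *Itgam* and *Itgax*, and 73.8% of all genes did not overlap. The members' median was -0.10 in spleen, against 0 for all genes, and the median absolute change was 0.28 against 0.33.

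Libraries of a group differed little, with a common biological coefficient of variation of 2.5%. When a coefficient of 0.2 was assumed in its place, in a likelihood ratio test, no member passed in lung, where 12.4% of all genes did, and 1 member, *Itgb3*, passed in spleen, where 9.08% did. For the difference between the organs 2 members passed against 16.0% of all genes, between organs in WT 0 against 16.0% and between organs in KO 2 against 18.4%.

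*Itgb2*, the shared chain of LFA-1, Mac-1 and the CD11c integrin, was counted at 2031 and 2159 CPM in the WT and 2761 and 2789 CPM in the KO lung libraries, and at 2427 and 2448 CPM in the WT and 1600 and 1661 CPM in the KO spleen libraries. Both lung KO libraries lay above all others and both spleen KO libraries below all others. *Itgb2* rose 1.33-fold in lung KO (log2 change 0.41, standard error 0.04, adjusted p = 2.8e-12 from edgeR) and was 0.67 of its WT level in spleen KO (log2 change -0.58, standard error 0.04, adjusted p = 4.3e-16 from edgeR). The difference between the effects was 0.98 on the log2 scale (standard error 0.05, adjusted p = 4.6e-19 from edgeR). With each library's GC trend removed, these values were 0.19 in lung, -0.42 in spleen and 0.61 for the difference.

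*Itgal*, the LFA-1 alpha chain, was counted at 527 and 561 CPM in the WT and 690 and 680 CPM in the KO lung libraries, and at 534 and 542 CPM in the WT and 459 and 453 CPM in the KO spleen libraries. WT libraries of both organs shared 1 range, with lung KO above it and spleen KO below it. The log2 fold change was 0.34 in lung (standard error 0.04, adjusted p = 3.9e-09 from edgeR) and -0.24 in spleen (standard error 0.04, adjusted p = 2.6e-06 from edgeR), and their difference was 0.58 (adjusted p = 2.2e-11 from edgeR). With the GC trend removed, the lung value was 0.11 and still passed, and the spleen value, -0.09, did not (adjusted p = 0.054 from edgeR), with a difference of 0.20.

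*Itgam*, the Mac-1 alpha chain and a marker of NK cell maturation, was counted at 389 and 381 CPM in the WT and 423 and 438 CPM in the KO lung libraries, and at 307 and 308 CPM in the WT and 293 and 310 CPM in the KO spleen libraries. All 4 lung libraries were above all 4 spleen libraries, and the spleen groups overlapped. *Itgam* rose in lung KO by 0.16 on the log2 scale (standard error 0.04, adjusted p = 0.0014 from edgeR), by 0.25 with library totals and by 0.09 with the GC trend removed. In spleen the log2 fold change was -0.01 with a 95% interval of -0.10 to 0.08 (adjusted p = 0.86 from edgeR). The effects differed by 0.17 (adjusted p = 0.014 from edgeR), a call lost with DESeq2 (adjusted p = 0.11), with the GC trend removed (0.07, adjusted p = 0.27 from edgeR) and without lung KO replicate 2 (0.15, adjusted p = 0.082 from edgeR).

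*Itgax* was counted at 125 and 126 CPM in the WT and 133 and 139 CPM in the KO lung libraries, and at 146 and 153 CPM in the WT and 148 and 146 CPM in the KO spleen libraries. Spleen libraries were higher than lung libraries, and the KO and WT spleen libraries overlapped. The log2 fold change in lung was 0.12 (95% interval 0.001 to 0.24, adjusted p = 0.081 from edgeR), and in spleen it was -0.03 (95% interval -0.14 to 0.07, adjusted p = 0.61 from edgeR). With the GC trend removed, the signs turned, to -0.05 in lung and 0.07 in spleen. Scaling by library totals gave 0.21 in lung, which passed (adjusted p = 0.0023 from edgeR), and 0.31 for the difference between the organs (adjusted p = 0.00072 from edgeR; 0.15 and adjusted p = 0.089 with TMM).

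*Itgam* and *Itgax* are also expressed by myeloid cells. Of 8 markers of monocytes, macrophages and dendritic cells, *Adgre1* and *Flt3* were at 0 in every library, and the summed level of the list was 37.9 to 40.2 CPM (WT) and 45.6 to 50.3 CPM (KO) in lung, and 27.2 to 29.5 CPM (WT) and 34.4 to 37.5 CPM (KO) in spleen. Of 6 neutrophil markers, 5 were at 0 in every library (*S100a8*, *S100a9*, *Mpo*, *Elane* and *Retnlg*), and the sum was 0 to 2.36 CPM. The myeloid sum was higher in KO than in WT in both organs, but its members did not move together. In lung, *Lyz2* rose (12.2 and 15.8 CPM in WT, 23.5 and 25.2 CPM in KO) and *Cd68* fell (15.7 and 14.2, 8.39 and 11.2 CPM). In spleen, *Cd68* rose (15 and 12.7, 21.5 and 18.6 CPM) and *Lyz2* overlapped (2 and 3.39, 1.63 and 4.1 CPM). The part of myeloid cells in the *Itgam* and *Itgax* levels was not tested. In a sorted bulk population, fewer cells that express a gene and less RNA of it per cell cannot be told apart.

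*Itgb1*, the beta chain of the VLA integrins, was counted at 894 and 912 CPM in the WT and 1152 and 1112 CPM in the KO lung libraries, and at 1115 and 1196 CPM in the WT and 928 and 930 CPM in the KO spleen libraries. The lung KO and spleen WT libraries overlapped at the high end, and the lung WT and spleen KO libraries were low without overlapping each other. *Itgb1* rose in lung KO by 0.33 on the log2 scale (standard error 0.04, adjusted p = 3.6e-09 from edgeR) and fell by 0.32 in spleen KO (standard error 0.04, adjusted p = 4.6e-09 from edgeR). The difference of 0.65 (standard error 0.05, adjusted p = 4.3e-13 from edgeR) was 0.72 with the GC trend removed.

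*Itga4*, the VLA-4 alpha chain, was counted at 686 and 694 CPM in the WT and 541 and 524 CPM in the KO lung libraries, and at 548 and 565 CPM in the WT and 604 and 614 CPM in the KO spleen libraries. Here lung WT was above every other library. *Itga4* fell by 0.37 (log2) in lung KO (standard error 0.04, adjusted p = 2.7e-10 from edgeR). In spleen KO it rose by 0.13 (standard error 0.04, adjusted p = 0.0039 from edgeR), and the effects differed by -0.50 (adjusted p = 3.7e-10 from edgeR), or -0.27 with the GC trend removed. The spleen call was lost with the GC trend removed, where the sign turned (-0.01, adjusted p = 0.85 from edgeR), with scaling by library totals (0.06, adjusted p = 0.18 from edgeR) and without spleen KO replicate 2 (0.11, adjusted p = 0.089 from edgeR). The antisense neighbour *Cerkl* had 15.2 to 23.7% as many reads as *Itga4*. It fell by 0.71 in lung KO and rose by 0.57 in spleen KO, the same directions as *Itga4*, and its part in the *Itga4* counts was not tested.

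*Itga2*, the collagen receptor chain of the DX5 antigen, was counted at 56.3 and 58.8 CPM in the WT and 66.3 and 61.5 CPM in the KO lung libraries, and at 43.2 and 44.9 CPM in the WT and 58.4 and 65.2 CPM in the KO spleen libraries. Spleen WT was the low group, and the KO libraries of both organs overlapped. *Itga2* rose 1.44-fold in spleen KO (log2 change 0.53, standard error 0.08, adjusted p = 2.6e-07 from edgeR). In lung the log2 fold change was 0.15 (95% interval -0.01 to 0.32, adjusted p = 0.11 from edgeR), and it passed with library totals (0.24, adjusted p = 0.011 from edgeR) and with the GC trend removed (0.19, adjusted p = 0.043 from edgeR). The effects differed by -0.38 (adjusted p = 0.0036 from edgeR), a call lost with library totals (-0.22, adjusted p = 0.093 from edgeR), with DESeq2 (-0.38, adjusted p = 0.084) and without spleen KO replicate 2 (-0.25, adjusted p = 0.17 from edgeR).

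*Itgae*, which encodes CD103 of tissue-resident lymphocytes, had few reads: 57 and 22 in the WT and 17 and 20 in the KO libraries of lung, and 13 and 32 in the WT and 18 and 154 in the KO libraries of spleen. These were 7.09 and 5.70, 3.48 and 2.72, 3.25 and 3.74, and 5.88 and 5.90 CPM in the same order. Lung WT and spleen KO were the high groups. *Itgae* was 0.459 of its WT level in lung KO (log2 change -1.12, standard error 0.27, adjusted p = 0.00062 from edgeR) and 1.65-fold higher in spleen KO (log2 change 0.72, standard error 0.23, adjusted p = 0.0087 from edgeR). The effects differed by -1.84 (standard error 0.36, adjusted p = 3.1e-05 from edgeR), and by -1.84 with DESeq2 (adjusted p = 0.0090).

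The lung call of *Itgae* was lost without lung WT replicate 1 (-0.92, adjusted p = 0.057 from edgeR). Its spleen call was lost with DESeq2 (0.74, adjusted p = 0.18), without spleen WT replicate 2 (0.86, adjusted p = 0.064 from edgeR) and without spleen KO replicate 2 (0.71, adjusted p = 0.18 from edgeR). T cells can carry CD103. Their marker *Trac*, the T cell receptor alpha constant gene, was counted at 23.5 and 21.8 CPM in the WT and 9.62 and 10.5 CPM in the KO lung libraries, and at 19.0 and 21.3 CPM in the WT and 30.0 and 27.5 CPM in the KO spleen libraries. *Trac* and *Cd3d* moved in the directions of *Itgae* in both organs. *Cd3d* went from 16.2 and 17.4 CPM in WT to 15.8 and 14.1 in KO in lung. In spleen it went from 59.2 and 62.3 to 72.1 and 64.4 CPM. *Cd3g* fell in lung (19.8 and 22.5 to 15.8 and 17.8 CPM) and in spleen (61.4 and 60.9 to 57.5 and 55.3 CPM). *Cd3e* overlapped in lung (7.71 and 6.99 in WT, 6.35 and 7.48 CPM in KO). In spleen *Cd3e* went from 32.0 and 32.5 CPM in WT to 7.51 and 11.1 in KO. The summed level of 6 T cell markers was 67.4 and 68.7 CPM in the WT and 48.5 and 51.2 CPM in the KO libraries of lung. In spleen it was 172 and 177 CPM in WT and 167 and 158 CPM in KO. That of 6 type 1 innate lymphoid cell markers was 110 and 107, 61.2 and 60.5, 158 and 171, and 136 and 147 CPM in the same order. Its members did not move together. In spleen *Il7r* fell (90.2 and 94.9 to 70.2 and 71.5 CPM) and *Cxcr6* rose (41.5 and 43.3 to 44.4 and 53 CPM). In lung the sum fell, but its member *Itga1* was higher in KO (7.83 and 8.55, 11.9 and 9.12 CPM). *Cd8b1* was at most 0.272 CPM and *Cd4* at most 1.02 CPM. The part of these cells in the *Itgae* counts was not tested.

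*Itgav* was counted at 55.8 and 60.1 CPM in the WT and 42.6 and 46.7 CPM in the KO lung libraries, and at 36.7 and 40.3 CPM in the WT and 31.7 and 35.4 CPM in the KO spleen libraries. Every lung library was above every spleen library, and KO was below WT in both organs. *Itgav* fell by 0.35 (log2) in lung KO (standard error 0.09, adjusted p = 0.00099 from edgeR). In spleen the log2 fold change was -0.17 (95% interval -0.35 to 0.01, adjusted p = 0.11 from edgeR), and it passed with library totals (-0.23, adjusted p = 0.025 from edgeR) and with the GC trend removed (-0.26, adjusted p = 0.012 from edgeR). A difference between the organs was not shown (-0.18, 95% interval -0.44 to 0.07, adjusted p = 0.20 from edgeR). With 1 library left out, the spleen value lay between -0.08 (without spleen WT replicate 2) and -0.30 (without spleen KO replicate 2), where the difference was -0.05.

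In lung, 41 and 19 reads of *Itgb3* were counted in WT and 31 and 47 in KO, and in spleen, 48 and 62 in WT and 6 and 79 in KO. These were 5.10 and 4.92, 6.34 and 6.39, 11.99 and 7.24, and 1.96 and 3.03 CPM. Spleen WT was the high group and also the most spread, and spleen KO was the low group. *Itgb3* was 0.328 of its WT level in spleen KO (log2 change -1.61, standard error 0.23, adjusted p = 2.3e-07 from edgeR). In lung the log2 fold change was 0.34 (95% interval -0.20 to 0.87, adjusted p = 0.28 from edgeR), and the effects differed by 1.95 (standard error 0.35, adjusted p = 8.8e-06 from edgeR).

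Platelets carry *Itgb3* with *Itga2b*. *Itga2b* was at most 0.995 CPM and *Gp9* was at 0 in every library. The summed level of 6 platelet markers was 66.8 and 66.3 CPM in the WT and 35.2 and 45.2 CPM in the KO libraries of lung, and 36.7 and 31.7 CPM in the WT and 19.6 and 20.7 CPM in the KO libraries of spleen. The sum was lower in KO in both organs, but its members did not move together. In lung *Pf4* fell (8.58 and 8.29 CPM in WT, 1.23 and 0.544 CPM in KO), as did *Ppbp* (21.1 and 20.2, 4.71 and 6.12 CPM). *Gp1bb* overlapped there (36.1 and 37.6, 28.9 and 38.2 CPM). In spleen *Gp1bb* fell (35.5 and 30.6 CPM in WT, 15.7 and 16.9 CPM in KO). *Ppbp* (0.25 and 0.117, 1.63 and 1.61 CPM) and *Gp6* (0 and 0, 1.96 and 1.49 CPM) rose in the same libraries. The log2 fold change of *Itgb3* was 0.34 in lung and -1.61 in spleen, and the part of platelet RNA was not tested.

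**Figure D2:**
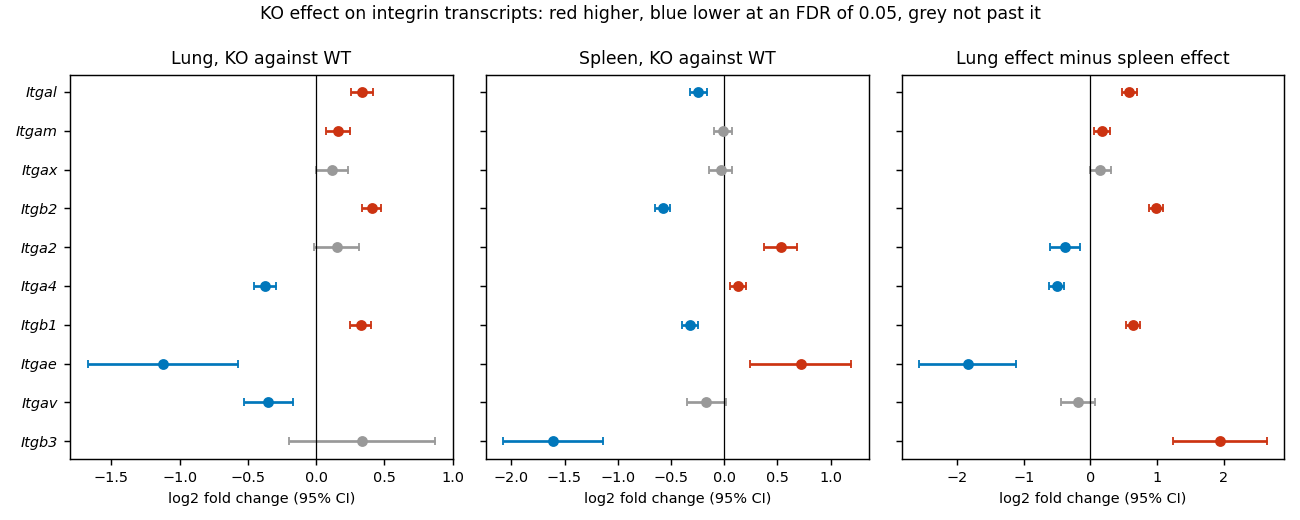
Log2 fold change of KO over WT in lung (left), in spleen (middle) and lung effect minus spleen effect (right) for the 10 integrin genes, with 95% intervals from edgeR; the horizontal scales differ. Red marks genes higher and blue genes lower at an FDR of 0.05, and grey genes did not pass. *Itgb2*, *Itgal* and *Itgb1* were higher in lung KO and lower in spleen KO.

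The effect of KO differed between lung and spleen for 8 of the 10 members, 5 with a larger log2 value in lung (*Itgal*, *Itgam*, *Itgb2*, *Itgb1* and *Itgb3*) and 3 with a smaller one (*Itga2*, *Itga4* and *Itgae*). The same test passed for 61.6% of all genes, 32.5% in the first direction and 29.0% in the second. The members' median difference was 0.16 and the median absolute difference 0.54, against 0.03 and 0.60 for all genes. The share of reads from mitochondrial genes was 1.45 and 1.36% in the WT libraries of lung and 1 and 0.982% in the KO libraries of spleen, against 0.945 and 0.932% in the KO libraries of lung and 0.792 and 0.797% in the WT libraries of spleen. The summed level of NK cell markers followed the same layout, at 38530 and 37400, and 36280 and 34540 CPM, against 30730 and 30800, and 27540 and 27320 CPM. Its largest member was *Gzma* (15300 to 25400 CPM), and not all members moved with it. *Tbx21* rose in lung KO (216 and 221 to 478 and 480 CPM) and fell in spleen KO (341 and 331 to 150 and 147 CPM). *Prf1* also rose in lung KO (1460 and 1560 to 2480 and 2550 CPM) and fell in spleen KO (1300 and 1320 to 939 and 938 CPM). The part of the mitochondrial share and of the marker levels in the difference was not tested. The labels give no extraction or sequencing batch, so a batch that joins lung WT with spleen KO libraries and lung KO with spleen WT libraries cannot be told apart from this difference.

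In WT mice, 5 members were higher in lung than in spleen (*Itgam*, *Itga2*, *Itga4*, *Itgae* and *Itgav*), 4 were lower (*Itgax*, *Itgb2*, *Itgb1* and *Itgb3*) and *Itgal* did not pass, where 57.0% of all genes passed, 27.7% higher and 29.3% lower. The libraries did not overlap for 9 members and for 75.6% of all genes. *Itgav* differed by 0.55 on the log2 scale (standard error 0.09, adjusted p = 2.6e-06 from edgeR), *Itgam* by 0.33 (adjusted p = 6.4e-08 from edgeR) and *Itga4* by 0.31 (adjusted p = 1.8e-08 from edgeR), the last being 0.16 with the GC trend removed and 0.20 with library totals. *Itgal*, at 0.008, passed with the GC trend removed (0.16, adjusted p = 0.00063 from edgeR) and, with the opposite sign, with library totals (-0.10, adjusted p = 0.043 from edgeR). *Itgb1* was lower in lung by -0.36 on that scale (adjusted p = 2.8e-10 from edgeR) and *Itgax* by -0.26 (adjusted p = 0.00023 from edgeR). Beside the assumed coefficient of variation, other alternatives ended 4 of the WT calls. *Itgax* was not called with the GC trend removed and a replicate block (-0.13, adjusted p = 0.058 from edgeR). For *Itgb2*, the value of -0.22 became -0.07 with the GC trend removed (adjusted p = 0.094 from edgeR). *Itgae* at 0.88 was not called with DESeq2 (adjusted p = 0.092) or without lung WT replicate 1 (0.69, adjusted p = 0.14 from edgeR). *Itgb3* at -0.81 was not called with DESeq2 (adjusted p = 0.069) or without spleen WT replicate 1 (-0.53, adjusted p = 0.090 from edgeR), and was -1.25 without spleen WT replicate 2.

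In KO mice, 6 members were higher in lung than in spleen (*Itgal*, *Itgam*, *Itgb2*, *Itgb1*, *Itgav* and *Itgb3*), 2 were lower (*Itga4* and *Itgae*) and *Itgax* and *Itga2* did not pass. Of all genes, 65.6% passed, 33.9% higher and 31.7% lower, and 79.4% did not overlap. *Itgb2* differed by 0.76 (standard error 0.04, adjusted p = 1.5e-20 from edgeR), *Itgal* by 0.59 (adjusted p = 7.0e-16 from edgeR) and *Itgam* by 0.50 (adjusted p = 4.2e-13 from edgeR). With the GC trend removed, *Itgal* was 0.36, *Itga4* was -0.11 and *Itgax* moved from -0.10 to -0.25 and passed (adjusted p = 6.7e-05 from edgeR). *Itgb3* differed by 1.13 (standard error 0.25, adjusted p = 0.00015 from edgeR). *Itga4* was -0.20 (adjusted p = 2.6e-05 from edgeR) and *Itgae* -0.96 (adjusted p = 0.00087 from edgeR), and the *Itgae* call was lost with DESeq2 (adjusted p = 0.065) and without lung KO replicate 2 (-0.76, adjusted p = 0.059 from edgeR) or spleen KO replicate 2 (-0.945, adjusted p = 0.065 from edgeR). *Itgam* and *Itgav* were thus higher in lung in both genotypes, and *Itgb2*, *Itgb1* and *Itgb3* were lower in lung in WT and higher in lung in KO.

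Ratios within a library do not depend on the scaling between libraries, but they keep each library's GC trend where the genes differ in GC content. Per length, the summed alpha partners *Itgal*, *Itgam*, *Itgax* and *Itgad* stood to *Itgb2* at a log2 ratio of -1.67 and -1.72 in the WT and -1.86 and -1.86 in the KO libraries of lung, and -1.98 and -1.98 in the WT and -1.52 and -1.55 in the KO libraries of spleen. There was thus less alpha transcript per beta 2 transcript in lung KO than in lung WT, and more in spleen KO than in spleen WT. *Itga4* over *Itgb1* was -1.74 and -1.75 in the WT and -2.45 and -2.44 in the KO libraries of lung, and -2.38 and -2.44 in the WT and -1.98 and -1.96 in the KO libraries of spleen. Lung WT held the most *Itga4* per *Itgb1*, spleen KO came next, and lung KO and spleen WT were next to each other at the low end.

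Within the beta 2 partners, *Itgal* made up 47.7% ± 1.3 (WT) and 50.9% ± 0.90 (KO) of transcripts per length in lung, and 49.4% ± 0.19 (WT) and 46.0% ± 0.96 (KO) in spleen (SD, n = 2 libraries each). *Itgam* made up 37.7% ± 1.2, 35.7% ± 0.60, 31.5% ± 0.086 and 34.0% ± 0.99 in the same order. *Itgax* made up 14.3% ± 0.16, 13.1% ± 0.33, 17.7% ± 0.49 and 19.2% ± 0.37. *Itgal* was the largest share in every library and *Itgax* was a larger share in each spleen library than in each lung library. *Itgad*, the remaining beta 2 partner, was 0.307 to 1.79% of a library's total. The log2 ratio of *Itgam* to *Itgal* was -0.28 and -0.40 in the WT and -0.55 and -0.48 in the KO libraries of lung, and -0.64 and -0.66 in the WT and -0.49 and -0.39 in the KO libraries of spleen, so that KO libraries were lower than WT in lung and higher than WT in spleen without overlap. GC content is 48.9% for *Itgam* and 53.2% for *Itgal*, and the GC trend was not removed from the ratios or shares. In the fit with the GC trend removed, the lung KO effects lay close together, at 0.095 for *Itgam* and 0.114 for *Itgal*. In spleen they were 0.02 and -0.088. With 2 libraries a group the ratios were not tested.

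**Figure D3:**
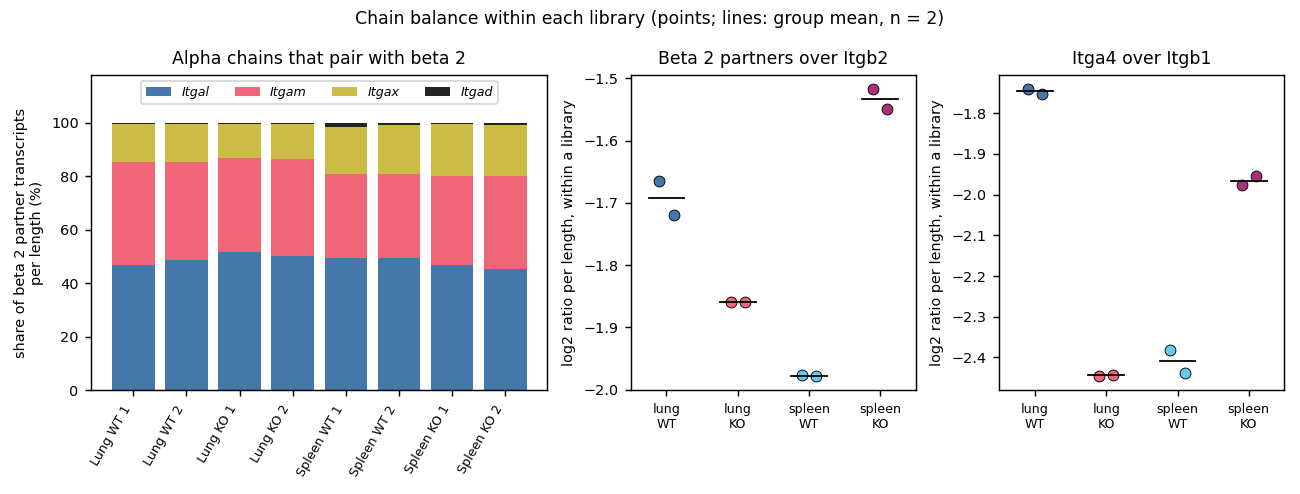
Left, share of the beta 2 alpha partners *Itgal*, *Itgam*, *Itgax* and *Itgad* in each library (vertical axis, % of their summed transcripts per length). Middle and right, log2 ratio per length of the summed partners to *Itgb2* and of *Itga4* to *Itgb1* within a library, with lines at the group means (n = 2) and axes that do not start at 0. Lung KO and spleen WT share the low end of both ratios.

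The other genes of integrin biology were counted by list, with how many passed at an FDR of 0.05 in edgeR. The median log2 fold change was 0.26 in lung for other alpha chains and 0.27 in lung for activators. In lung and spleen it was -0.02 and -0.56 for other beta chains, 0.16 and -0.15 for inhibitors, 0.28 and -0.07 for outside-in signalling and -0.21 and -0.18 for membrane partners, against 0.02 and 0 for all genes tested. No median is given for the ligands or, in spleen, for other alpha chains and activators, since *Jam2*, *Itga8* and *Fermt2* had groups with no read there. The counts of each list are to be read against 55.6% of all genes called in lung (29.2% higher, 26.4% lower), 57.1% in spleen (28.2% higher, 28.9% lower), 61.6% for the difference between the organs, 57.0% between organs in WT and 65.6% between organs in KO. Of 11 other alpha chains, 6 were tested: 1 rose and 0 fell in lung KO, and 0 rose and 3 fell in spleen KO, or 1 and 1 in lung and 0 and 1 in spleen with the GC trend removed. *Itga6*, a laminin receptor chain, rose by 0.50 in lung KO (standard error 0.10). *Itga1*, the collagen receptor chain CD49a, fell by 1.26 on the log2 scale in spleen KO (standard error 0.21) from 9.24 and 8.53 to 2.29 and 3.83 CPM. It is also 1 of the 6 type 1 innate lymphoid cell markers, and the part of such cells was not tested. *Itga5*, the fibronectin receptor chain, fell by 0.46 and *Itgad* fell by 0.48 in spleen KO, and both calls were lost with DESeq2 (adjusted p = 0.25 and 0.13) and with the GC trend removed (adjusted p = 0.35 and 0.16 from edgeR). The *Itga5* call was also lost without replicate 2 of spleen WT or of spleen KO, and the *Itgad* call without replicate 1 of either (-0.10 and -0.39). For this list 2 members had a larger effect in lung and 0 a smaller one. Of them, 2 were higher and 2 lower in lung in WT, and 3 higher and 1 lower in lung in KO. *Itga8* is among those higher in lung in both genotypes. It had 10 to 20 reads in each lung library and 0 in each spleen library, so it was tested only through its lung reads.

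Of 6 other beta chains, 2 were tested. *Itgb7*, the partner of both *Itga4* and *Itgae*, was counted at 228 and 246 CPM in the WT and 311 and 328 CPM in the KO lung libraries, and at 273 and 253 CPM in the WT and 183 and 175 CPM in the KO spleen libraries. It rose in lung KO (log2 change 0.44, standard error 0.05, adjusted p = 1.4e-09 from edgeR) and fell by 0.56 in spleen KO (standard error 0.05, adjusted p = 6.2e-12 from edgeR), the directions of *Itgb2* and *Itgb1*. With the GC trend removed, *Itgb7* was 0.08 in lung, which did not pass (adjusted p = 0.18 from edgeR), and -0.26 in spleen, which did. *Itgb5* did not pass in either organ (-0.49 and -0.56, standard errors 0.40 and 0.52). In lung, with 6 to 19 reads in each library, it passed with the GC trend removed and a replicate block (-1.06, adjusted p = 0.021 from edgeR). With 1 library left out it was -1.22 to -0.14 in lung and -1.70 to -0.002 in spleen. *Itgb7* was the 1 with a larger effect in lung. In WT 1 was higher and 1 lower in lung, and in KO 2 were higher.

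All 14 activators, which switch integrins on from inside the cell, were tested. In lung KO 8 rose and 2 fell, and in spleen KO 4 rose and 6 fell, or 7 and 2, and 4 and 7, with the GC trend removed. *Fermt3* (kindlin-3), which binds beta chain tails, was counted at 95.1 and 100.5 CPM in the WT and 168 and 179 CPM in the KO lung libraries, and at 161 and 166 CPM in the WT and 102 and 94.2 CPM in the KO spleen libraries. It rose by 0.84 in lung KO (standard error 0.06, adjusted p = 2.1e-14 from edgeR) and fell by 0.78 in spleen KO (standard error 0.06, adjusted p = 2.2e-14 from edgeR). *Rasgrp2*, an exchange factor for Rap1, rose by 0.27 and fell by 0.66, and *Rassf5* (RAPL), a Rap1 effector, rose by 0.38 and fell by 0.37 in lung and spleen KO. *Rap1b*, the small GTPase itself, went the other way, at -0.37 in lung and 0.14 in spleen, but the spleen value lost its call with library totals (0.07) and its sign with the GC trend removed (-0.02). For this list 7 had a larger and 3 a smaller effect in lung (8 and 5 with the GC trend removed). Against spleen, 5 were higher and 7 lower in lung in WT, and 8 were higher and 1 lower in lung in KO. *Fermt2* is among those higher in lung in both genotypes. It had 20 to 44 reads in each lung library and 0 in each spleen library, so it was tested only through its lung reads.

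All 7 inhibitors were tested, with 4 higher and 1 lower in lung KO and 1 higher and 4 lower in spleen KO, or 2 and 2, and 2 and 3, with the GC trend removed. *Dok2*, an adaptor of the Dok family that can compete with talin at beta tails, rose by 0.61 in lung KO (standard error 0.04) and fell by 0.72 in spleen KO (standard error 0.04). *Dok1* rose by 1.35 (standard error 0.18) and fell by 0.74 (standard error 0.15). *Itgb1bp1* (ICAP-1), a binder of the beta 1 tail, fell by 0.28 in lung KO and rose by 0.36 in spleen KO. *Rap1gap2*, which turns Rap1 off, was at 0.13 in lung (adjusted p = 0.18 from edgeR). There it was -0.10 with the GC trend removed, 0.22 with library totals, which passed (adjusted p = 0.019 from edgeR), and 0.22 without lung KO replicate 1. It fell by 0.34 in spleen KO, a call lost with DESeq2 (adjusted p = 0.062), and was -0.18 there without spleen KO replicate 2. In this list 5 had a larger and 1 a smaller effect in lung (2 and 3 with the GC trend removed), 4 were higher and 2 lower in lung in WT, and 6 were higher and 1 lower in lung in KO.

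Of 15 genes of outside-in signalling, 11 were tested, with 6 higher and 3 lower in lung KO and 3 higher and 4 lower in spleen KO, or 3 and 3, and 4 and 2, with the GC trend removed. *Zyx* (zyxin) of focal adhesions rose by 0.80 in lung KO and fell by 0.53 in spleen KO (standard error 0.05 in each). *Cyth1* (cytohesin-1), which binds the beta 2 tail, rose by 0.34 and fell by 1.12, and its lung call was lost with DESeq2 (adjusted p = 0.079), with the GC trend removed (0.05, adjusted p = 0.75 from edgeR) and without lung KO replicate 1 (0.27, adjusted p = 0.057 from edgeR). *Vav1*, an exchange factor downstream of LFA-1, rose by 0.43 and fell by 0.18, and its spleen value was -0.004 with the GC trend removed (adjusted p = 0.97 from edgeR). The adaptor *Nck1* was at -0.15 in lung and 0.40 in spleen, and its lung call was lost with library totals (-0.06), DESeq2 (-0.15), the GC trend removed (0.03) and without lung WT replicate 1 (-0.13) or lung KO replicate 2 (-0.07). In this list 5 had a larger and 3 a smaller effect in lung (3 and 4 with the GC trend removed), 4 were higher and 4 lower in lung in WT, and 7 were higher and 3 lower in lung in KO.

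Of 14 integrin ligands, 6 were tested, with 5 higher and 0 lower in lung KO and 0 higher and 2 lower in spleen KO, or 5 and 1, and 2 and 2, with the GC trend removed. *Icam1*, the LFA-1 ligand, was counted at 79.1 and 78.8 CPM in the WT and 125 and 146 CPM in the KO lung libraries, and at 100.9 and 99.6 CPM in the WT and 64.3 and 68.8 CPM in the KO spleen libraries. It rose by 0.79 in lung KO (standard error 0.07, adjusted p = 3.5e-12 from edgeR) and fell by 0.56 in spleen KO (standard error 0.07, adjusted p = 7.3e-09 from edgeR). *Thy1*, which binds Mac-1 and the vitronectin receptor, rose by 0.99 in lung KO and was at -0.03 in spleen (adjusted p = 0.73 from edgeR), where it was 0.21 and passed with the GC trend removed (adjusted p = 0.0021 from edgeR). *Spp1* (osteopontin) rose by 0.26 in lung KO and was at 0.03 in spleen (adjusted p = 0.75 from edgeR). *Jam2* had 0 reads in both WT libraries of lung against 15 and 16 in KO, and 3 and 7 reads in the WT libraries of spleen against 0 in both of KO. The summed level of 6 lung epithelial, endothelial and stromal markers was 224 and 223 CPM in WT and 336 and 369 CPM in KO libraries of lung. In spleen it was 65.2 to 75.4 CPM, nearly all *Pecam1* (64.9 to 74.9 CPM). The lung rise was mainly in *Sftpc* (152 and 156 against 251 and 282 CPM) and *Pecam1* (60.7 and 57.5 against 80.2 and 78.2 CPM). Endothelial *Cdh5* (9.45 and 8.55 against 4.71 and 7.75 CPM) and stromal *Col1a1* (1.37 and 1.55 against 0 and 0.68 CPM) were lower in lung KO. The part of such cells in the ligand counts was not tested. For the ligands 4 had a larger and 0 a smaller effect in lung (5 and 1 with the GC trend removed). Against spleen, 2 were higher and 4 lower in lung in WT, and 4 were higher and 2 lower in lung in KO. All of these counts include *Jam2*, as do those of the KO effects (5 higher in lung, 2 lower in spleen). With no read in lung WT or in spleen KO, *Jam2* was tested only through the groups where it had reads. Its calls are therefore no support for a change. *Vcam1*, among the 5 higher in lung KO, had only 11 and 6 reads in the WT and 23 and 26 in the KO lung libraries. It is also among those higher in lung in both genotypes. It had 0 to 2 reads in each spleen library, so it was tested only through its lung reads.

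All 7 membrane partners were tested, with 3 higher and 3 lower in lung KO and 2 higher and 3 lower in spleen KO, or 3 and 4, and 2 and 2, with the GC trend removed. *Slc3a2* (CD98 heavy chain), a binder of beta 1 tails, rose by 0.60 in lung KO and fell by 0.43 in spleen KO (standard error 0.05 in each). The tetraspanin *Cd82* rose by 0.55 and fell by 0.18 (0.05 in spleen with the GC trend removed, which did not pass), and the tetraspanin *Cd9* fell by 0.48 in lung KO and rose by 0.28 in spleen KO. *Cd226* (DNAM-1), which associates with LFA-1, fell in both organs, by 0.69 in lung (standard error 0.07) and by 0.23 in spleen (standard error 0.06), where the call was lost with DESeq2 (adjusted p = 0.085) and without spleen WT replicate 2 (adjusted p = 0.053 from edgeR). In this list 2 had a larger and 3 a smaller effect in lung (3 and 2 with the GC trend removed). Against spleen, 3 were higher and 1 lower in lung in WT, and 3 were higher and 3 lower in lung in KO.

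**Figure D4:**
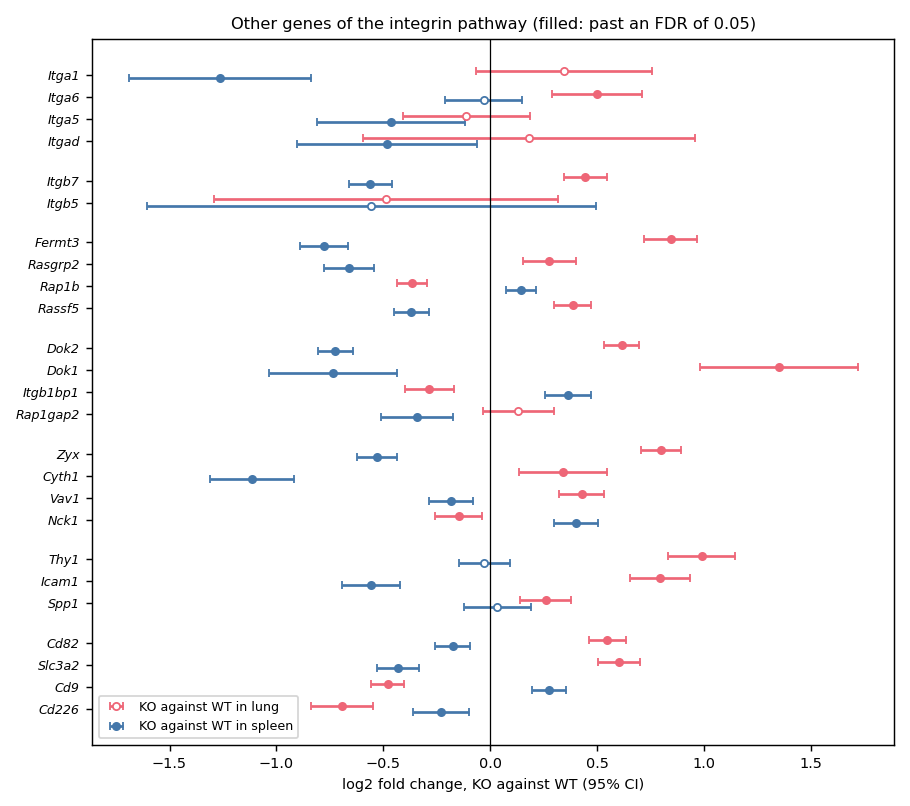
Log2 fold change of KO over WT in lung (red) and spleen (blue) with 95% intervals for the named genes of the 7 lists, in the order other alpha chains, other beta chains, activators, inhibitors, outside-in signalling, ligands and membrane partners; filled points passed an FDR of 0.05 in edgeR. *Jam2* is not drawn because both libraries of a group were at 0. *Fermt3*, *Dok2* and *Zyx* were higher in lung KO and lower in spleen KO, and *Cd226* was lower in both.

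Removing the GC trend changed the size of many of these values without ending the call. In lung KO, *Fermt3* was then 0.49, *Rassf5* 0.19, *Rasgrp2* 0.16, *Rap1b* -0.23, *Dok2* 0.26, *Zyx* 0.47, *Vav1* 0.18, *Icam1* 0.50, *Cd82* 0.26, *Slc3a2* 0.37 and *Cd226* -0.26. In spleen KO, *Fermt3* was -0.50, *Rassf5* -0.24, *Dok2* -0.43, *Dok1* -0.45, *Zyx* -0.27, *Nck1* 0.22, *Icam1* -0.33, *Slc3a2* -0.27 and *Cd226* -0.50.

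For 4 members, the genes most like them across the 8 libraries were taken by Pearson correlation of log2 CPM among 5102 other abundant genes. *Itgb2* was closest to *Rasal3* (r = 0.997), *Adora2a* (0.996) and *Tkt* (0.994). *Itgal* was closest to *Pknox1* (0.994), the perforin gene *Prf1* (0.990) and *Il17ra* (0.989). Genes close to *Itgam* included *Pmaip1* (0.992) and *Elmo1* (0.991). *Itga2* was closest to *Plin2* (0.976), *Srsf7* (0.966) and *Hsp90aa1* (0.947). The 8 points fall into 4 groups of 2 and share their libraries' composition, so these values describe likeness of pattern only.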

How the data were processed

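RNA-seq was done on NK cells of 4 groups, given by organ and genotype in the sample labels, with 2 libraries each. The authors prepared libraries with the NEBNext Ultra II RNA kit, ran HISAT2 2.1.0 against mm10 on reads of 50 bp, counted them with HTSeq (0.11.1 in the submitters' processing notes) and deposited raw counts per gene symbol, without normalization. The annotation and strand setting are not given in the sources used here. Rows that name no gene held 70.9 to 72.8% of listed reads and were left out of library sizes and tests.

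Counts were tested in R 4.3.3 with edgeR 4.0.16 (filterByExpr, TMM scaling, quasi-likelihood F test, 1 mean per group over all 8 libraries), with Benjamini-Hochberg adjustment over 12595 genes and an FDR of 0.05; limma 3.58.1 was loaded with edgeR. The standard error is the log2 fold change divided by the square root of F, and intervals are 95%. Log2 CPM used a prior count of 2. Library totals of 3132963 to 26482366 reads set a floor of 3 reads at 0.115 to 0.979 CPM. The floor covers counting error only. Of 48321 symbols, 46394 matched a GENCODE M21 gene name, 585 a synonym and 1342 none; GC content was known for 12501 genes tested (99.3%).

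The alternatives were scaling by RLE, by library totals or by the upper quartile, omitting the filter, requiring 10 counts in each library, a likelihood ratio test, DESeq2 1.42.0, an assumed coefficient of variation of 0.2, a replicate block, an offset that removes each library's GC trend (spline with 5 degrees of freedom), both together, a fit on 4 libraries, and leaving out each library. Deviations of equally numbered libraries from their group means correlated at -0.014 in lung, 0.17 in spleen, 0.0045 across WT and -0.076 across KO (5103 genes with mean log2 CPM above 5), so the numbers were not taken as pairs. The fit was tested on simulated data. The named genes are the 10 members, up to 4 genes per pathway list with the smallest p in a KO comparison, and the 3 genes most like each of 4 members, of which 1 is not reported here. Members, lists and alternatives were chosen with earlier results of these data known. The summed level of 5 B cell markers was 5.18 to 44.4 CPM, of 4 mast cell and basophil markers 1.29 to 4.71 CPM, and of 6 lung epithelial, endothelial and stromal markers 65.2 to 369 CPM.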

Additional observations from a re-analysis of the deposited data

Results flagged for a closer look

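The KO effect on 8 integrin genes differed between lung and spleen by the test of the difference itself (log2 fold change in lung minus that in spleen, edgeR's quasi-likelihood test). The difference was 0.985 for *Itgb2*, 0.645 for *Itgb1*, 0.582 for *Itgal*, 0.172 for *Itgam* and 1.946 for *Itgb3*, and it was -0.38 for *Itga2*, -0.504 for *Itga4* and -1.842 for *Itgae*. Of all genes tested, 61.6% passed the same test. When a coefficient of variation of 0.2 was assumed, 2 of the 8 differences passed, those of *Itgae* and *Itgb3*, which are the members with the fewest reads, against 16.0% of all genes at that setting.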

How the results depend on the processing

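The numbers of members past the threshold (7 in lung, 7 in spleen, 8 for the difference, 9 between organs in WT and 8 in KO) stayed within 1.5 times under every alternative run but one, and with 1 library left out they were 6 to 7, 5 to 7, 7 to 8, 8 to 9 and 7 to 8. With an assumed coefficient of variation of 0.2 they were 0, 1, 2, 0 and 2. With the replicate block they were 7, 7, 8, 9 and 8; the equal numbers are not known to pair libraries, and the block changed no member's call. Over the 10 members and their alternatives, 851 values kept direction and side of the threshold. With the same sign, 58 lost the call and 11 gained it. Another 25 changed sign, with or without a change of call, and the cause was not tested. *Itgb3* was not tested where at least 10 counts in every library were required.

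Signs turned as follows. With the GC offset, and with the GC offset and block, *Itgax* was -0.051 and -0.056 in lung KO, 0.065 and 0.059 in spleen KO and -0.116 and -0.115 for the difference, *Itgam* was 0.020 and 0.019 and *Itga4* -0.01 and -0.01 in spleen KO, and *Itga2* was 0.038 and 0.042 between organs in KO. *Itgam* in spleen KO was 0.001 with upper quartile scaling and 0.004 with no filter. *Itga2* between organs in KO was 0.043 with library totals, 0.005 with at least 10 counts, 0.020 with DESeq2 and 0.043 with the assumed coefficient. *Itgal* between organs in WT was -0.097 with library totals, which passed (adjusted p = 0.043 from edgeR), against 0.162 with the GC offset, which also passed (adjusted p = 0.00063 from edgeR). With 1 library left out, *Itgam* in spleen KO was -0.069 to 0.013, *Itgax* in spleen KO -0.062 to 0.009, *Itgal* between organs in WT -0.023 to 0.074 and *Itga2* between organs in KO -0.049 to 0.128. For the 25 named pathway genes, whose alternatives were added after the data were seen, 856 values of the KO effects kept direction and side. With the same sign, 63 lost the call and 5 gained it, and 22 changed sign, with or without a change of call. With the GC offset, and with the GC offset and block, *Itgad* was -0.044 and -0.001, *Rap1gap2* -0.099 and -0.103 and *Nck1* 0.028 and 0.038 in lung KO, and *Rap1b* was -0.023 and -0.023, *Thy1* 0.21 and 0.208, *Spp1* -0.063 and -0.06 and *Cd82* 0.05 and 0.048 in spleen KO. In spleen KO, *Itga6* was 0.007 with DESeq2 and 0.017 with the assumed coefficient, and *Spp1* was -0.035 with library totals and -0.003 with the assumed coefficient. With 1 library left out, *Itgad* in lung was -0.086 to 0.324, *Itga6* in spleen -0.122 to 0.146 and *Spp1* in spleen -0.069 to 0.051. Library totals moved the median of all genes to 0.11 in lung, 0.19 for the difference and -0.12 between organs in WT.

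Without division by length, the log2 ratio of *Itgam* to *Itgal* was -0.497 (WT) and -0.669 (KO) in lung and -0.807 (WT) and -0.596 (KO) in spleen, and the shares of *Itgal*, *Itgam* and *Itgax* were 51.4, 36.4 and 11.9% (WT) and 54.6, 34.3 and 10.8% (KO) in lung (*Itgad* 0.277%) and 53.4, 30.5 and 14.8% in WT spleen, with *Itgal* at 50.0% and *Itgax* at 16.2% in spleen KO. The 6 reads of *Itgb3* and 13 of *Itgae* in the thinnest libraries limit those values.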
